A study of Mus musculus with 6 samples.

Results

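The genes described here are the mouse protein-coding genes named Zfp900 to Zfp999, chosen by symbol in the GRCm38.p6 gene table. There are 62 of them, and 41 held at least 3 CpG cytosines listed in every library, in the gene or within 1 kb of either end, out of 17349 such protein-coding genes in all. DNA methylation was read by reduced representation bisulfite sequencing (RRBS) in male germ cells of mice from 2 groups, CSDS and Control, with 3 libraries each. CSDS mice had been exposed to chronic social defeat stress, a procedure that brings a mouse repeatedly under attack by a dominant one, and Control mice are its controls. The labels name no strain, age or method of isolating the cells, nor whether the replicates were separate animals, so p-values measure only the spread between these libraries. A library listed 2420308 to 3156788 cytosines with at least 10 reads each, with a median of 44 to 50 reads. A level is the percent of reads that show C, averaged over the cytosines of a window with equal weight, and differences of levels are in percentage points, CSDS minus Control.

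Numbered Zfp genes of this range are rich in KRAB zinc finger genes, a family that grew by repeated local duplication in rodents, so that many members stand side by side in clusters of near copies. A KRAB zinc finger protein binds DNA through an array of zinc fingers, each reading a short stretch of bases. Its KRAB domain recruits Trim28 (also called KAP1), which brings in the histone methyltransferase Setdb1 and heterochromatin proteins and silences the bound DNA, often a transposon. Only a few of the numbered genes have a described target. Promoters of active genes are usually unmethylated in male germ cells, whereas gene bodies and spacer DNA are usually methylated.

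The sequences below show what the assay reads at these genes. They are RefSeq promoters of GRCm38.p6, from 250 bases before to 50 bases after a listed start, written 5′ to 3′ on the strand of the gene, with capitals at each CG that had a cytosine listed in all 6 libraries. RRBS cuts DNA at CCGG, so reads start at that motif. Zfp961 (chr8:71950816-71951115, plus strand) was read on the CpGs from its first CCGG to its second.
Zfp961: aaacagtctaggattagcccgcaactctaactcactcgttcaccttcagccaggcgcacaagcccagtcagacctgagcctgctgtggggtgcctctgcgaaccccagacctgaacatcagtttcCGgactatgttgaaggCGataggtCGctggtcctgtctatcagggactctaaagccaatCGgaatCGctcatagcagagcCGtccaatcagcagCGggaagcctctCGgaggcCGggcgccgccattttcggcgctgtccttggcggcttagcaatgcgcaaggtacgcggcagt
Zfp977 (chr7:42592496-42592795, minus strand) is CpG-poor, with 6 CpGs of which 4 were read, and had the highest level of the 5′ ends.
Zfp977: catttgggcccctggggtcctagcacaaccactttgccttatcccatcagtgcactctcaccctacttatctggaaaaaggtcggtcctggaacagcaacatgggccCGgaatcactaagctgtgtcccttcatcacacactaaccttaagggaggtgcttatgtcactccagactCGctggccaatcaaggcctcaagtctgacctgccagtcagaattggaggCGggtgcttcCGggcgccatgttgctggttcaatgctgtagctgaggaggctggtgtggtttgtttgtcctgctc
Zfp944 (chr17:22361351-22361650, minus strand) carried the largest difference between the groups at a gene end, on 4 cytosines.
Zfp944: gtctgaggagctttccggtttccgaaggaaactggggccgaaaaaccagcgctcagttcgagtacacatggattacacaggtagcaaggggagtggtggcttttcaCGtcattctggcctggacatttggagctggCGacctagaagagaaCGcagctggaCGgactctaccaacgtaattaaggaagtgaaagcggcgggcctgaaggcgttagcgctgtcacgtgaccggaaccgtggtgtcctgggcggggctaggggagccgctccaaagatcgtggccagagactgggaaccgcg
Zfp966 (chr2:175931051-175931350, minus strand) shares this promoter letter for letter with Zfp967, and neither had a cytosine listed in any library.
Zfp966: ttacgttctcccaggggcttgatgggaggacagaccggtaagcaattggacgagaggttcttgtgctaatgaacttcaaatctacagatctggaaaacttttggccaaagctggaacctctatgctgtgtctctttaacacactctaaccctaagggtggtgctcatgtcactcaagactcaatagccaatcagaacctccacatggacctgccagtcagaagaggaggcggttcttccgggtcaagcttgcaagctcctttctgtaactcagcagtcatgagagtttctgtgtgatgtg

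Coverage of the family was thin. Of the 62 genes, 41 (66.1%) held 3 or more cytosines listed in all libraries, against 285 of 305 (93.4%) of the genes Zfp1 to Zfp899 and 79.2% of 21900 protein-coding genes. The remaining 21 comprise 17 genes with none and 4 with 1 or 2 (Zfp937, Zfp963, Zfp992 and Zfp985). In 12 of the 17, no library listed a cytosine at all. The median over all members was 11.5 cytosines, against 61 for Zfp1 to Zfp899.

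The clusters were covered unevenly. With a gap of at most 1 Mb between neighbours, 42 members fell into 6 clusters and 20 stood alone. The cluster on chromosome 2 (chr2:175372034-178078425) had 3 of its 9 members measured, namely Zfp970, Zfp971 and Zfp931. On chromosome 4 (chr4:145510759-147849126) 7 of 14 members were measured, and on chromosome 17 (chr17:21565816-22867309) 9 of 10. The short cluster on chromosome 7 (chr7:42579397-43192109) had 3 of 4, the cluster on chromosome 8 had 1 of 3 and that on chromosome 13 had 2 of 2. In all, 25 of the 42 clustered members were measured and 16 of the 20 that stood alone.

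Promoters of unmeasured members had closer copies elsewhere. Among 18 unmeasured members with a listed promoter, 16 had another gene's promoter at 60% identity or more, with a median of 89.5% among these, and 7 reached 90%. Among 37 measured members, 24 had such a match, with a median of 83.5%, and 7 reached 90%. For measured Zfp1 to Zfp899 genes, 28 of 232 promoters had such a match. Promoters of Zfp968 and Zfp973, both without a listed cytosine, were 99.7% identical. Genes with a close promoter copy were not always without data. Zfp971 and Zfp970 matched another promoter at 97% and 96% and held 20 and 9 cytosines, but 0 of these lay in the compared promoter sequence. Zfp977 matched another promoter at 91.7% and had 8 cytosines listed within that sequence. Member promoters were also CpG-poor, with a median of 8 CpGs in the 300 bases, against 15 for Zfp1 to Zfp899 and 13 for all protein-coding genes. Unmeasured members had a median of 5 CpGs (3 to 11) and measured ones 8 (3 to 25). The motif CCGG, which reads the same on both strands, occurred in 67.3% of 55 member promoters, 74% of 250 promoters of Zfp1 to Zfp899 and 61.7% of all. How far mapping of near-identical reads or CpG content set these gaps was not tested.

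Where they were read, the starts of these genes were mostly unmethylated. A gene-end window reaches 1 kb to either side of a gene end, and 34 such windows in 31 members held 3 or more cytosines. The 29 windows at 5′ ends had mean levels of 10.7% to 37.5%, with a median of 17.1%. The 3 windows at 3′ ends (Zfp952, Zfp956 and Zfp974) stood at 97.0% to 98.5%, and Zfp978 and Zfp960 each had 1 end whose strand the promoter table does not give. In all, 21 end windows lay under 20%, 10 between 20% and 80% and 3 above 80%. Zfp942 and Zfp943 start back to back and share all 16 cytosines of their window, which enters these and later counts as 2 windows. Taken once, there are 33 windows, with 28 at 5′ ends and 20 under 20%.

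The lowest ends belonged to Zfp994, Zfp944, Zfp958, Zfp932 and Zfp974. Zfp994, with 44 cytosines, read 13.8%, 7.93% and 7.23% in CSDS replicates 1 to 3, against 13.3%, 10.1% and 11.8% in Control. Zfp932, with 16 cytosines, read 13.98%, 8.02% and 10.4% in CSDS, against 14.06%, 13.0% and 12.1% in Control. In Zfp994 CSDS replicate 1 was the highest library and in Zfp932 the second highest, so the groups overlapped in both. At the other extreme of the 5′ ends, the intermediate windows had overlapping groups too. Zfp977 read 37.7%, 32.2% and 36.2% in CSDS, against 43.7%, 37.7% and 37.2% in Control. Zfp952 read 36.4%, 37.5% and 35.7% in CSDS, against 39.0%, 37.1% and 35.7% in Control. These levels rest on 6 cytosines and came to 18.9% over all libraries with reads summed and 6.17% at a coverage of at least 20, against 36.9% as given. A window of 6 cytosines at its 3′ end stood at 98.2%, 98.0% and 99.5% in CSDS against 98.5%, 95.1% and 97.9% in Control. The 3′ end of Zfp956 read 95.4%, 96.7% and 99.0% in CSDS, against 91.5%, 100% and 99.1% in Control. Both 3′ ends overlapped between the groups.

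Other intermediate ends belonged to Zfp951, Zfp938, Zfp949, Zfp961 and Zfp947. Zfp951 read 28.0%, 25.3% and 26.8% in CSDS, against 28.4%, 26.5% and 27.7% in Control. Zfp938 read 26.4%, 22.5% and 22.3% in CSDS, against 26.7%, 28.8% and 24.3% in Control. In both, CSDS replicate 1 was the highest of its group and lay among the Control libraries. Zfp949 read 25.5%, 20.2% and 19.6% in CSDS, against 27.6%, 27.6% and 24.03% in Control. Zfp961 read 24.2%, 18.8% and 20.5% in CSDS, against 28.3%, 23.6% and 24.2% in Control. Zfp947 read 22.8%, 19.6% and 21.8% in CSDS, against 28.3%, 26.3% and 20.2% in Control. In each of these 3 genes at least 1 Control library lay below a CSDS library. Zfp960, the highest of all but the 3′ ends, read 50.3%, 54.2% and 50.3% in CSDS, against 57.1%, 51.5% and 50.8% in Control.

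**Figure D1:**
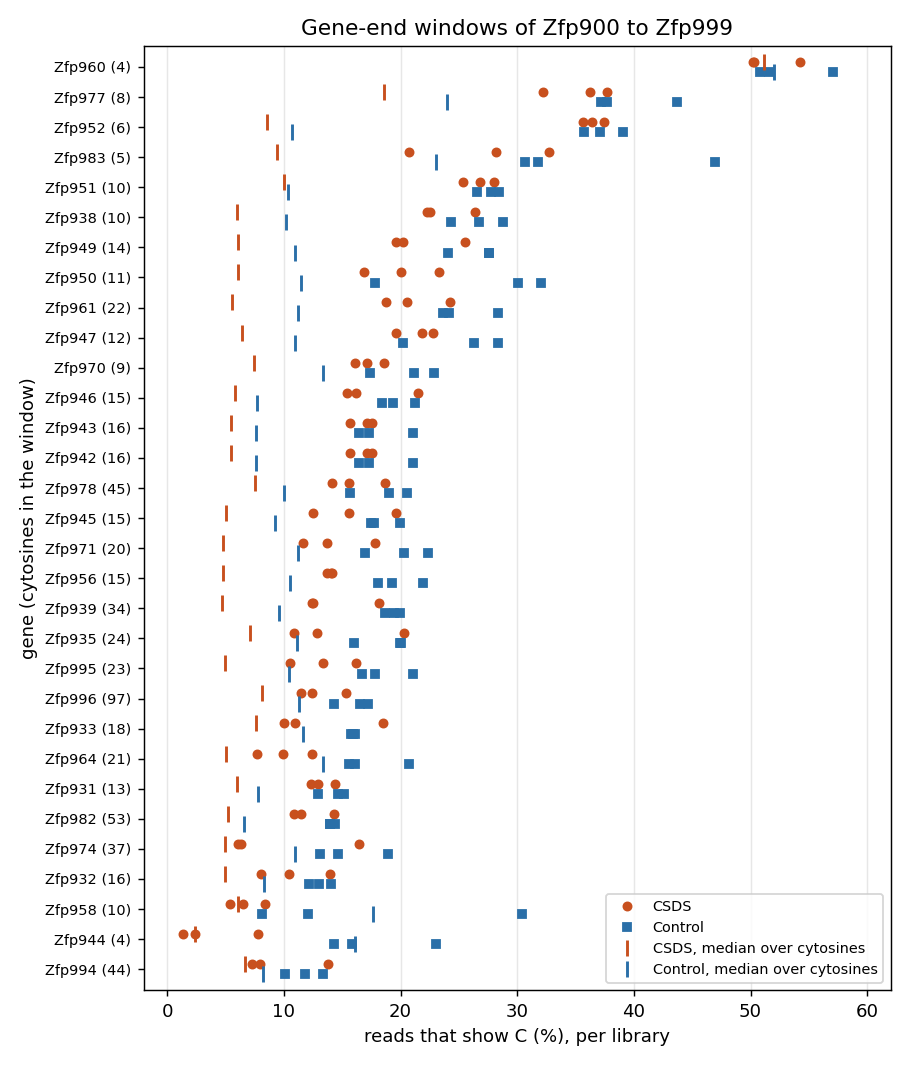
Levels of the 5′ ends of 29 members and of the ends of Zfp978 and Zfp960, whose strand is not listed. Circles are the 3 CSDS libraries, squares below them the 3 Control libraries, and upright bars the median over the cytosines of the window averaged over the libraries of a group; the medians lie well left of the circles and squares in most genes, as in Zfp951 at 9.98% in CSDS and 10.4% in Control.

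Most of the intermediate ends mixed low cytosines with a few high ones. In Zfp977, 6 of the 8 cytosines lay between 14.5% and 21.1% and the others near 98%. The median over the cytosines of a window was 8.70% in the middle of the 34 member ends, against 7.22% for Zfp1 to Zfp899 and 7.14% for all gene ends. High readings sat in CCGG. In 14 member promoters whose other cytosines had a median under 20%, 41 cytosines in CCGG averaged 40.04% ± 2.72 in CSDS and 43.7% ± 1.06 in Control (SD, n = 3 libraries each). The 129 cytosines outside CCGG in 16 such promoters averaged 6.34% ± 2.99 in CSDS and 10.9% ± 0.489 in Control. Of the CCGG cytosines 10 were above 90%, and of the others 0. In such promoters of all protein-coding genes, 5924 of 37545 CCGG cytosines (15.8%) were above 90% and 0 of 178058 others. The same split was thus present in such promoters of all genes. Choosing promoters by a low median outside CCGG favours low readings there by construction. Over all genes with 3 or more promoter cytosines outside CCGG, the promoter averages of these reached 96.9%.

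The promoter of Zfp961, printed above, shows how this looks. At its first CCGG the forward cytosine averaged 7.49% over the 6 libraries and the reverse cytosine of the same CpG 85.9%. At its second CCGG the forward cytosine averaged 99.5% and the reverse one 6.79%. Outside CpGs whose strands lay over 50 points apart, the cytosines of this gene-end window averaged 7.35%. Zfp977 repeated the pattern, with 15.4% forward and 97.9% reverse at the CCGG at chr7:42592559-42592560 and 97.9% forward and 21.1% reverse at chr7:42592687-42592688. In the gene-end window of Zfp960, the cytosines of 1 CpG averaged 9.41% and 94.2% and those of the other 99.0% and 6.80%, which gives its mean of 52.4% with no cytosine near that value.

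**Figure D2:**
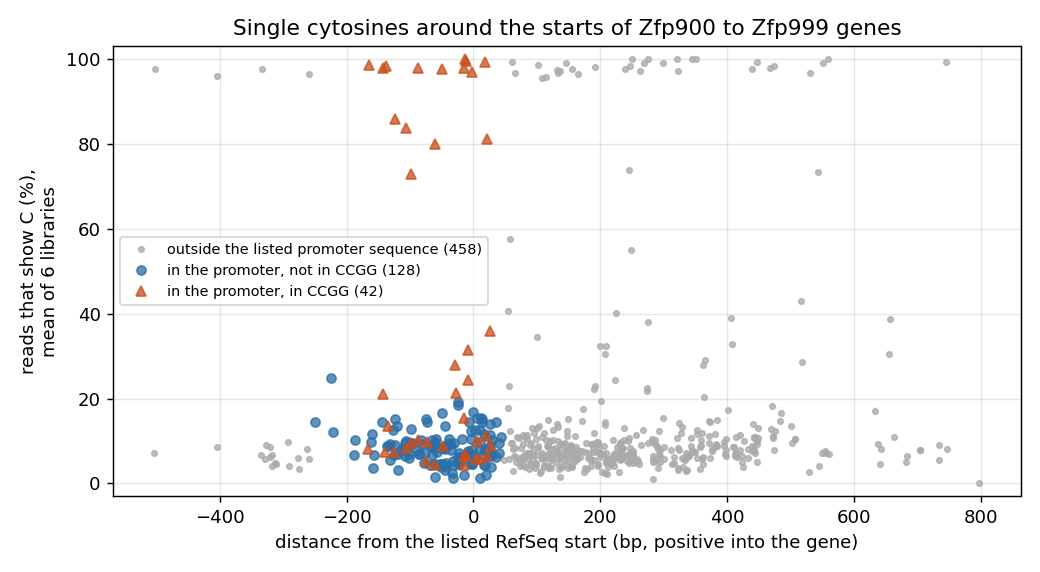
Each point is a cytosine, placed by its distance from the listed RefSeq start of its gene (bp, positive into the gene) and by its level averaged over the 6 libraries (percent). Triangles are cytosines in CCGG, circles are other cytosines of the listed promoter sequence and dots lie outside that sequence, where the motif could not be read; the highest circle reads 24.8%, whereas triangles lie mostly in a low and a high band.

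Strands of a CpG that lay more than 50 points apart were counted next, a comparison added after this pattern was seen. They made up 50 of 267 CpGs read on both strands at member ends (18.7%), against 9.13% of 403575 at all gene ends and 10% at ends of Zfp1 to Zfp899. With such CpGs left out, 32 member ends kept 3 cytosines or more. Of these, 29 lay under 20%, 0 between 20% and 80% and 3 above 80%. The ends that dropped out, Zfp960 and the 5′ end of Zfp952, had been intermediate, at 52.4% and 36.9%. Leaving out such CpGs also takes high cytosines from low windows by construction. The middle of the 32 ends was 7.75% in CSDS and 12.9% in Control. Among all gene ends the share between 20% and 80% was 14.8% with these CpGs and 6.35% without them. In the 300-base promoters, 15 members with 3 or more cytosines outside CCGG had a median level of 8.54%, against 6.24% for Zfp1 to Zfp899 and 6.15% for all genes. Zfp977 at 16.9% and Zfp983 at 16.3% were the highest of the 15 and Zfp982 at 4.76% the lowest. RRBS fills in the fragment ends that the enzyme leaves at CCGG, and its part in these readings was not tested. In promoters whose other cytosines had a median under 20%, members had 41 cytosines in CCGG beside 129 others. Over all genes these were 37545 beside 178058. The part of this mix in the strand shares was not tested.

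CSDS levels were lower than Control levels at most member ends, by a few points. A call needed an adjusted p below 0.05 and 10 points of difference, and no end met this by a moderated quasi-binomial F test over all 18221 end windows, of which 0% were called. The lowest adjusted p of any gene end was 0.153. At an unadjusted p under 0.05 there were 5 of 34 member ends, against 30.5% of all ends, and limma on logit levels also called 0 and gave 5, against 22.3% of all ends. The difference was below 0 at 32 of 34 member ends, against 91.5% of all ends, with a median of -2.95 points, against -3.21 over all ends and -3.51 for Zfp1 to Zfp899. All CSDS libraries lay below all Control libraries at 6 member ends, against 31.9% of all ends, and above them at 0, against 0.499%. Apart from the share below 0, these shares are under those of gene ends at large. Member ends also held fewer cytosines, with a median of 15 per window against 40 over all ends. The part of this in the lower shares was not tested.

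The libraries also differed in a reading outside the genes. The median share read as C over 27 mitochondrial CpG cytosines, DNA that is taken to be unmethylated, was 8.50%, 4.41% and 4.53% in CSDS replicates 1 to 3, against 8.90%, 8.84% and 10.04% in Control. The median over member ends was 18.6%, 14.8% and 15.6% in CSDS, against 19.96%, 20.7% and 20.1% in Control. CSDS replicates 2 and 3 were the lowest libraries in both readings. The order of the Control libraries differed between the readings, over narrow ranges of 8.84% to 10.04% and 19.96% to 20.7%. The part of the mitochondrial reading in the group difference was not tested. CSDS replicates 2 and 3 lay below the other 4 libraries at 22 of 34 member ends (64.7%), against 73.4% of all ends. With each library corrected by its mitochondrial share, the median difference at member ends was -0.136 points, 18 of 34 lay below 0 (background 58.8%), 2 had an unadjusted p under 0.05 (background 6.73%), and the groups were apart with CSDS lower at 3 ends (background 7.8%) and higher at 1 (background 3.98%). CSDS replicate 1 alone, whose mitochondrial share is near Control, gave a median difference of -1.11 points, with 22 of 34 ends below 0 (background 66%). With the median over cytosines in place of the mean, the groups were apart with CSDS lower at 7 member ends (background 25.6%) and higher at 0 (background 0.615%), 32 of 34 lay below 0 (background 89.7%), and the median difference was -4.09 points. For interiors it gave CSDS lower in 1 (background 18.2%) and higher in 0 (background 1.24%).

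**Figure D3:**
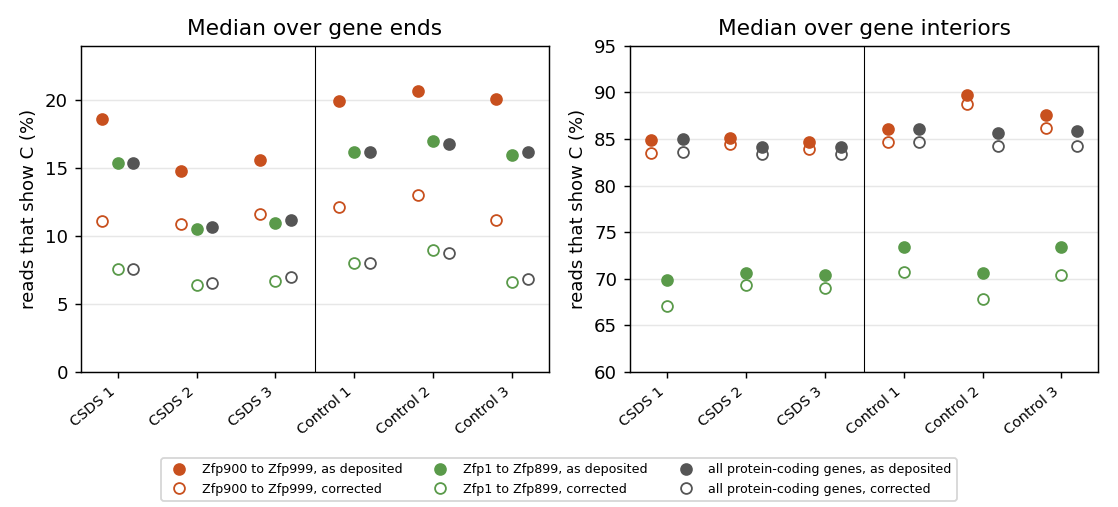
Medians over gene-end windows (left) and interiors (right) in each library, as percent of reads that show C, for members, Zfp1 to Zfp899 and all protein-coding genes. Filled circles are the deposited values and open circles those corrected by the mitochondrial share; at member ends CSDS replicates 2 and 3 stand at 14.8% and 15.6% and the other libraries at 18.6% to 20.7%, and after correction the libraries span 10.9% to 13.0%.

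Zfp944, of the chromosome 17 cluster, had the largest difference of the member ends. Its 4 cytosines, all on the reverse strand and outside CCGG, read 7.74%, 2.34% and 1.34% in CSDS, against 23.1%, 14.3% and 15.8% in Control. The groups were apart, at 3.81% ± 3.44 in CSDS and 17.7% ± 4.68 in Control (SD, n = 3 each), a difference of -13.9 points with an adjusted p of 0.153 by the moderated quasi-binomial F test. The window held 54 to 256 reads per library over its cytosines, and the cytosines, at 22361489 to 22361544, lie past the end of Zfp944 and inside the neighbouring gene Zfp758. After the mitochondrial correction the difference was -11.4 points and the groups stayed apart, but the corrected CSDS levels were -0.830%, -2.16% and -3.34%, below any possible level. Such a value arose at 1 other member end, Zfp958. Without CSDS replicate 1 it was -15.9 points and the end was called, as were 256 of all gene ends.

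Zfp964, on chromosome 8 with 21 cytosines, read 12.4%, 7.65% and 9.88% in CSDS, against 15.6%, 16.0% and 20.8% in Control, a difference of -7.48 points. Zfp956 read 13.7%, 14.1% and 14.04% in CSDS, against 18.1%, 21.9% and 19.2% in Control, a difference of -5.78 points in which CSDS replicate 1 was the lowest library. Of the ends that were apart, Zfp944, Zfp964 and the 3′ end of Zfp974 stayed so after correction. Zfp939 (-5.05 points) and Zfp995 (-5.16 points) no longer did, nor did Zfp956. The 3′ end of Zfp974 read 96.9%, 95.3% and 99.0% in CSDS, against 100% in each Control library, on 3 cytosines. The adjusted p of the 6 ends was 0.153 to 0.232 by the same F test.

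Further ends are named for differences of 5 points or more, chosen after their values were seen, and in none were the groups apart by the mean. With the median over cytosines, the groups were apart with CSDS lower in Zfp971, Zfp958 and Zfp983 (background 25.6%). By that median they overlapped in Zfp950 and at the 5′ end of Zfp974. Zfp958 read 5.34%, 6.45% and 8.36% in CSDS, against 12.05%, 30.4% and 8.15% in Control. Its difference of -10.2 points was -3.38 without Control replicate 2. Zfp983, on 5 cytosines, read 32.7%, 28.2% and 20.8% in CSDS, against 30.7%, 31.8% and 47.0% in Control, and its difference of -9.28 points was -4.03 without Control replicate 3. It was -19.3 with reads summed over cytosines, -5.31 without the coverage cap on 9 cytosines and -6.05 without CSDS replicate 3. The 5′ end of Zfp974 read 16.4%, 6.07% and 6.33% in CSDS, against 13.0%, 18.9% and 14.7% in Control. Its difference was -5.95 points, and -9.35 without CSDS replicate 1. Zfp950 (-6.55 points) was at -3.83 without Control replicate 2 and -11.0 without Control replicate 1. Zfp971 differed by -5.50 points, between -7.23 and -4.12 with a library left out.

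The shared window of Zfp942 and Zfp943 on chromosome 17 read 17.1%, 17.5% and 15.7% in CSDS, against 21.0%, 16.4% and 17.3% in Control, with overlapping groups. Ends of the chromosome 17 cluster ran from 10.7% (Zfp994) to 31.8% (Zfp983), those of chromosome 2 from 13.7% (Zfp931) to 18.9% (Zfp970), and those of chromosome 4 from 13.2% (Zfp982) to 17.3% (Zfp978). The spans of the clusters overlap.

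Inside the genes methylation was high, with a few low islands. An interior is the gene without the 1 kb next to either end, and 23 members had 3 or more cytosines there, with a median level of 85.5%, against 85.4% for all genes and 70.7% for Zfp1 to Zfp899. Of the 23, 14 lay above 80%, 8 between 20% and 80% and 1 below 20%. The lowest, Zfp959, read 9.50%, 5.80% and 6.15% in CSDS, against 11.5%, 9.04% and 14.3% in Control. Its listed start lies 1009 bp inside the gene's lower end, and its 25 cytosines, at 55892142 to 55892249, lie just past that start. Zfp993, with 200 cytosines, read 28.7%, 24.2% and 23.1% in CSDS, against 28.5%, 28.2% and 28.4% in Control. Zfp991 read 46.2%, 39.7% and 33.3% in CSDS, against 42.3%, 38.3% and 31.6% in Control, on 3 cytosines that all lie within Zfp978 as well. Zfp957 read 56.2%, 53.6% and 57.3% in CSDS, against 54.8%, 58.9% and 55.0% in Control. The groups overlapped in each of these 4 genes.

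Cytosines inside the genes were grouped into patches wherever neighbours lay at most 300 bp apart. There were 76 patches of 3 or more cytosines, with a median over cytosines above 80% in 59, between 20% and 80% in 6 and under 20% in 11. Of the 11 low patches, 6 lay within 1 kb of the end of an annotated pseudogene, against 2 of the 59 high ones, and 1 at the start of Zfp959. Zfp993 spans 478623 bp in the gene table and Zfp978 spans 267146 bp, and these 2 genes hold all 6. In Zfp993 the patch of 86 cytosines next to the pseudogene Gm20760 had a median of 6.19%, and that of 26 cytosines next to Gm13233 a median of 6.49%. In Zfp978 the patches next to Gm13146 and Gm13135, with 54 and 59 cytosines, had medians of 17.9% and 11.5%. The patches of Zfp978 next to Gm13158 were high, at 84.7% and 89.7%. The interior levels of the 2 genes, 26.9% and 62.1%, are means over such low patches and high ones.

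**Figure D4:**
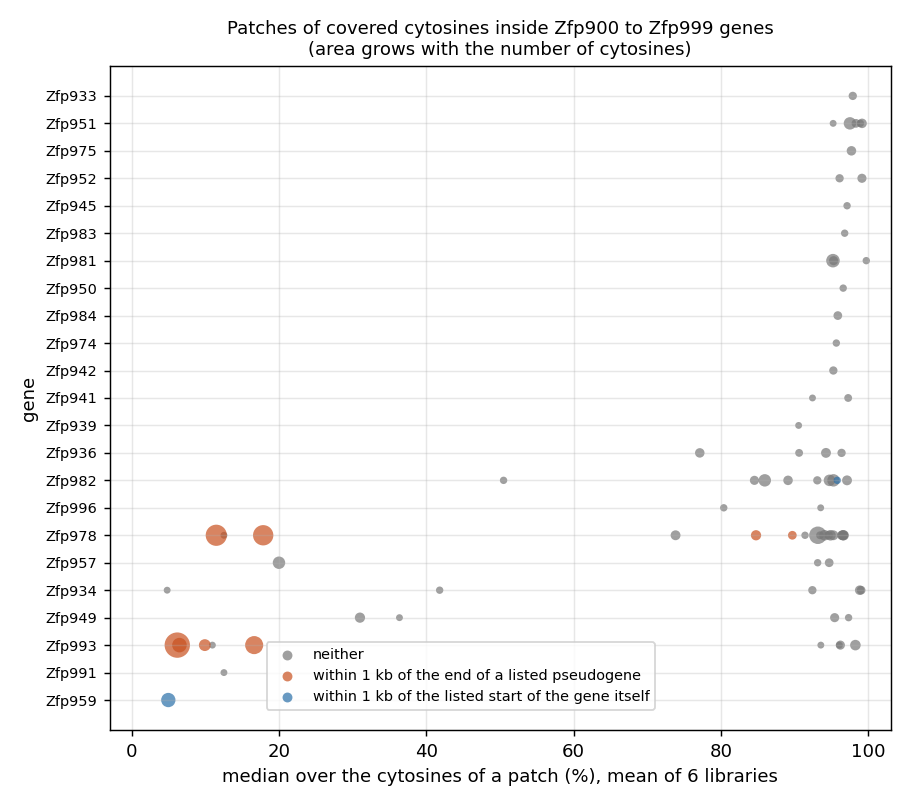
Patches of 3 or more cytosines inside members, by gene (rows) and by the median over their cytosines averaged over the 6 libraries (percent); the area of a point grows with the number of cytosines. Points near the end of an annotated pseudogene lie at 6.19% to 17.9% in Zfp993 and Zfp978, apart from those near Gm13158 at 84.7% and 89.7%.

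A patch of Zfp949 was intermediate at each cytosine. Its 11 cytosines at chr9:88553238-88553358 ran from 21.7% to 47.4% when averaged over the libraries. The patch read 28.3%, 30.8% and 35.6% in CSDS, against 44.5%, 21.4% and 31.4% in Control, and the groups overlapped. A neighbouring patch of 3 cytosines at 88552860 had a median of 36.3%, with single cytosines from 31.1% to 97.9%. The other patches of the gene, 4 cytosines at 88550095 and 8 at 88559240, had medians of 97.3% and 95.4%. In Zfp957, on the minus strand, 18 cytosines at chr14:79213856-79214222, at the 3′ side of the gene, had a median of 20%, ran from 7.25% to 99.2% singly and read 28.4%, 24.6% and 29.9% in CSDS, against 27.5%, 33.8% and 28.5% in Control. Zfp957 also had 3 other patches or pairs of cytosines, all with medians of 93.1% to 95.5%. Patches of intermediate median in Zfp982 (50.5%) and Zfp934 (41.8%) were mixtures, each with a cytosine under 1% beside another above 90%.

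Interiors differed between the groups by less than the ends. None of 13510 interiors was called by the moderated quasi-binomial F test (0%; lowest adjusted p 0.154), and at an unadjusted p under 0.05 there were 2 of 23 member interiors, against 22.3% of all, with 3 by limma, against 12.3% of all, which also called 0. The median difference was -0.672 points, against -1.56 over all genes, and 17 of 23 lay below 0, against 82.2%. Groups were apart with CSDS lower in 4 members, against 23.4% of all interiors, and with CSDS higher in 0, against 1.07%. Zfp978, with 284 cytosines, read 62.6%, 59.7% and 59.7% in CSDS, against 63.5%, 64.4% and 62.7% in Control, a difference of -2.88 points. Zfp996, on 7 cytosines, read 82.4%, 81.4% and 84.7% in CSDS, against 85.2%, 91.6% and 87.5% in Control. Zfp975, on 11, read 95.2%, 96.2% and 94.9% in CSDS, against 96.6%, 96.8% and 96.8% in Control. These differences were -5.25 points in Zfp996 and -1.29 in Zfp975. In Zfp996 it was -11.6 with reads summed and -10.5 at a coverage of at least 20, which leaves 4 cytosines. Zfp945, on 6, read 78.4%, 79.2% and 78.2% in CSDS, against 80.8%, 81.0% and 79.8% in Control. Its difference of -1.92 points was -0.423 with reads summed. After the mitochondrial correction the groups were apart with CSDS lower in 1 member, Zfp975 (background 10.1%), and higher in 0 (background 2.58%). Then 11 of 23 lay below 0 (background 65.6%) and 1 had an unadjusted p under 0.05 (background 7.39%). CSDS replicate 1 alone lay below the Control mean in 13 of 23 (background 63%).

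A stretch of 100 bp inside Zfp978 (chr4:147351777-147351877, 227 kb from the lower end of the gene) stood out among the patches. It was chosen after the patches were seen. Its 10 cytosines averaged 73.2%, 70.3% and 69.5% in CSDS, against 82.5%, 83.8% and 83.1% in Control. The groups lay well apart, at 71.0% ± 1.98 in CSDS and 83.1% ± 0.632 in Control (SD, n = 3 each), and CSDS replicate 1 sat with the other CSDS libraries. No other gene end lies within 1 kb in the gene table. The difference of -12.1 points had an unadjusted p of 4.5e-06, and an adjusted p of 0.228 over 64940 interior patches of all protein-coding genes by the moderated quasi-binomial F test, so it was not called. That was the lowest adjusted p of any patch, and 0% of patches were called. A difference at least this far below 0 occurred in 301 of the 64940. Groups apart with CSDS lower by 10 points or more occurred in 1 of 78 member patches, against 0.617% of all.

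The mitochondrial correction left the stretch at -12.2 points. Leaving out 1 library at a time gave -13.2 to -11.4 points, and it was called without CSDS replicate 1, when 504 patches were. The groups were apart at 8 of its 10 cytosines. Those 8 are all on the reverse strand and were read 162 to 254 times per library, and they lie close enough to share reads, so they are not independent. At the cytosine at 147351854, CSDS read 66.7%, 68.0% and 66.7%, against 81.7%, 84.6% and 83.7% in Control. The 2 other cytosines, at 147351777 on the reverse and 147351876 on the forward strand, read 96.9% to 100% in CSDS and 92.9% to 100% in Control. The forward one belongs to the same CpG as the reverse cytosine at 147351877. That reverse cytosine averaged 65.9% in CSDS and 79.2% in Control, and the forward one 97.9% and 96.2%. The groups were thus apart on 1 strand of this CpG only. Of 385 cytosines of Zfp978 listed in all libraries, 329 lay under the coverage cap. Over all cytosines, 4668 of 2210988 lay over it.

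**Figure D5:**
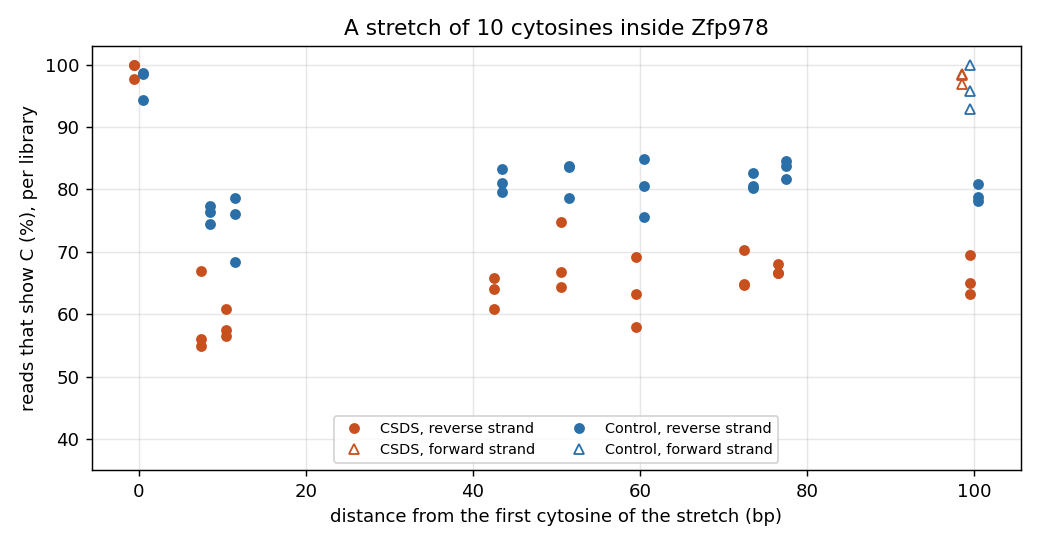
Percent of reads that show C at each of the 10 cytosines of the stretch inside Zfp978, by distance from its first cytosine in bp; the percent axis starts at 35. At 8 reverse-strand cytosines the CSDS libraries lie below the Control libraries, and at the other 2 the groups overlap between 92.9% and 100%.

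Over the 78 member patches tested, counted gene by gene, the groups were apart with CSDS lower in 13, against 12.9% of all patches, and with CSDS higher in 2, against 2.23%. The 2 patches higher in CSDS were 12 cytosines of Zfp978 (3.95 points) and 3 of Zfp941 (6.03 points). At an unadjusted p under 0.05 there were 11 of 78, against 11.3% of all. The difference was below 0 in 57 of 78, against 69.2% of all. These shares are near the background.

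In all, 5 member cytosines read C in under 1% of reads in the mean of all libraries, below the mitochondrial share of each library. Zfp982 at 147464094 had 0 of 445 reads over the 6 libraries, while the forward cytosine of the same CpG averaged 8.15%. Zfp984 at 147808990 had 0 of 136 reads and Zfp978 at 147125160 had 0 of 108. Zfp982 at 147485899 and Zfp934 at 62555002 each had C in 1 library only. Such cytosines made up 0.327% of the members' 1529 cytosines, each counted once, and 0.585% of all cytosines.

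Genes through which KRAB zinc finger proteins act, and well known genes of the family itself, were low at their starts in both groups. Of 17 such genes listed, 11 had a 5′ end window, all with a median over cytosines under 20%, and 0 were called by the F test. The middle 5′ end of all protein-coding genes had a median over cytosines of 6.61%. Zfp809 and Zfp445, which are of the family itself, had the lowest and the highest difference of the 11, at -8.13 and 0.153 points. Trim28, the shared corepressor, read 11.2%, 6.62% and 5.93% in CSDS, against 10.8%, 9.72% and 9.55% in Control, with overlapping groups. The groups were apart with CSDS lower at 1 of the 11, against 3969 of 10904 5′ ends of all protein-coding genes. That gene was Morc3, a chromatin ATPase, at 8.06% ± 1.91 in CSDS and 11.4% ± 0.693 in Control (SD, n = 3 each). Its difference of -3.31 points was 0.0614 after the mitochondrial correction. The median difference of the 11 was -3.89 points, and -0.628 after correction.

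The labelled cell type was checked at the starts of germ cell genes, as the files hold no RNA. Of 9 such genes, 8 had a median over cytosines under 20%, among them Dazl at 8.57% and Ddx4 at 11.1%, whereas Prm1 stood at 89.2%. Over all protein-coding genes the middle 5′ end had a median over cytosines of 6.61%. Of 7 somatic and blood genes, Insl3 (Leydig cells) was the 1 with a 5′ end window, at 47.6%. Amh (Sertoli cells) had an end window whose strand is not listed, with 45 cytosines and a median of 5.88%, lower than Dazl. Whether that end is the start of Amh is thus not known here. With 1 somatic start measured, whether low starts set germ cell genes apart from somatic ones could not be told.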

How the data were processed

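Libraries came from male germ cell DNA by a Zymo-Seq RRBS kit, per the labels' protocols. Trim Galore 0.5.0, Bismark 0.20.0 and GRCm38 are named in the submitters' processing notes. Per the file headers, the deposited values are a read count (coverage) and the percent of reads showing C or T for every cytosine, by position and strand. Percent times count gave whole methylated counts to within 8.7e-11. Duplicate handling is not given in the sources used here, so reads are not independent molecules.

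Cytosines listed in all 6 libraries (2210988) were used without the top 0.1% of coverage. Window levels weigh cytosines equally, with the effective number of reads as weight in a logistic fit with group as its term, limma 3.58.1 squeezeVar dispersions held at 1 or above, an F test and Benjamini-Hochberg adjustment over all protein-coding windows of a kind. Replicate numbers did not pair the libraries (correlations of deviations -0.0835 to 0.0204).

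Members and lists were chosen with earlier results of these data known. Every member may be named, and library values are given for ends and interiors with groups apart, the highest, lowest and intermediate ends and the lowest interiors. The ends of 5 points or more, the named patches and their tests, strand comparison, near-zero cytosines and the median over cytosines were added after the data were seen. The gene table gives no exons. The fit was checked on simulated data.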

Additional observations from a re-analysis of the deposited data

How the results depend on the processing

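No member window was called under any alternative except Zfp944 without CSDS replicate 1. Leaving out 1 library gave 0 to 1 member ends and 0 member interiors called, and 0 to 256 ends and 0 to 89 interiors over all genes, the highest counts without CSDS replicate 1. Member ends with groups apart and CSDS lower, 6 as reported (31.9% of all ends), ranged from 7 to 24 with a library left out (24 without CSDS replicate 1, 13 without Control replicate 3). They were 11 with reads summed over cytosines and 3 with the mitochondrial correction (7.8% of all ends). Interiors apart, 4 as reported, ranged from 4 to 9 with a library left out (9 without CSDS replicate 1, 8 without Control replicate 2), and were 1 with the mitochondrial correction (10.1% of all interiors), 1 with the median over cytosines (18.2%) and 7 with CSDS replicate 1 alone (35.6%). The median difference of the ends ranged from -4.21 to -2.22 with a library left out, and was -0.136 with the correction and -1.11 with CSDS replicate 1 alone. For interiors it ranged from -1.16 to -0.528, and was 0.0135 with the correction. Fewer libraries make groups apart more common by construction, and the cause of the other changes was not tested. Counts of groups apart with a library left out or reads summed are given without the share of all windows, so they have no background. Without CSDS replicate 1, 17 of 34 member ends had an unadjusted p under 0.05 by the F test, against 67.4% of all ends. For interiors it was 5 of 23, against 36.4% of all. The 5′ end of Zfp974 turned to 0.85 with CSDS replicate 1 alone. The other 14 of 15 differences followed kept their direction under the alternatives run. Levels were less stable: 61 of 141 values moved by more than the spread between libraries. With reads summed, Zfp952 came to 18.9%, Zfp947 to 13.0%, Zfp977 to 23.6% and Zfp983 to 46.8%. At a coverage of at least 20, Zfp950 came to 6.77% and Zfp951 to 9.42%. The mitochondrial correction moved the differences of Zfp964 to -4.62, Zfp956 to -2.94, Zfp939 to -2.08, Zfp995 to -2.20, Zfp971 to -2.59, Zfp950 to -3.98, the 5′ end of Zfp974 to -2.84 and the interior of Zfp978 to -1.57. With reads summed, the interior of Zfp978 differed by -5.13, and at a coverage of at least 20 Zfp950 differed by -2.70 and Zfp995 by -3.22.

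With the replicate number as a block, 0 ends and 0 interiors were called, 3 member ends (27% of all ends) and 3 member interiors (20.6% of all interiors) had an unadjusted p under 0.05, and the stretch in Zfp978 differed by -12.1 points. The lowest adjusted p with the block was 0.181 for ends and 0.176 for interiors.

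Limits: many member ends differ by a few points, which is the size of the mitochondrial differences between libraries. The CCGG context was read only in listed promoters, as no genome was used here, and 21 members held fewer than 3 cytosines.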
